A study of Saccharomyces cerevisiae with 6 samples.

Results

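The 5 genes that make and break down glutamate and glutamine in budding yeast, GDH1, GDH3, GLT1, GLN1 and GDH2, were compared between strains expressing different forms of Cit1, a citrate synthase. They were chosen by gene name, and each name matched 1 of the 6416 transcript rows of the deposited table. All samples were BY4741, a laboratory strain of Saccharomyces cerevisiae, and all cultures were given galactose as their carbon source in synthetic complete medium. In 3 samples the cells expressed NdeltaCit1-DS/AA (DS/AA here, replicates 1 to 3) and in the other 3 NdeltaCit1-DS/AA-H/G (DS/AA-H/G, replicates 4 to 6). Per the series' title, both are Cit1 without its presequence, the leader that takes the protein into mitochondria. The substitutions behind DS/AA and H/G and the promoter that drives the expressed form are not spelled out in the labels. Each value is a scaled estimated count, that is, the authors' estimate of the reads of a transcript divided by 1 scaling factor per library.

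Glutamate and glutamine carry the nitrogen that cells hand on to other amino acids and to nucleotides. Gdh1 and Gdh3 are NADP-dependent glutamate dehydrogenases that join ammonium to 2-oxoglutarate, an intermediate of the citric acid cycle, to make glutamate. Gln1, glutamine synthetase, adds a further ammonium to give glutamine, and Glt1, glutamate synthase, passes the amide nitrogen of glutamine to 2-oxoglutarate and so also yields glutamate. Gdh2, an NAD-dependent glutamate dehydrogenase, runs the other way and releases ammonium and 2-oxoglutarate.

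The 4 synthesis genes rose in DS/AA, and the breakdown gene GDH2 did not pass the test. GDH1 was 1.59-fold and GLN1 1.47-fold higher, while GLT1 was 1.28-fold and GDH3 1.26-fold higher (n = 3 libraries per strain). Here rose and fell mean higher and lower in DS/AA than in DS/AA-H/G. No sample lacked an expressed form, so these words do not say which of the strains changed. Either call needed a limma p, adjusted by Benjamini-Hochberg over the 6197 genes tested, under 0.05. Of those genes, 22.1% rose and 19.7% fell, 41.8% in all, so a call on its own is common in this comparison. Of the 5 genes, 4 rose and 0 fell, and their median log2 change was 0.36 against 0.01 over all tested genes.

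The 6 libraries held 30277564 to 32702577 estimated reads. No library was treated as a duplicate of another, since the mean chi-square of a gene was 4.18 to 19.5 for replicate pairs and 189 to 225 for pairs across strains. Whether replicates were separate cultures is not in the labels, so the p-values reflect only the spread of these samples, possibly a technical one. The CIT1 row itself held 1205730 ± 11966 scaled counts in DS/AA-H/G against 522165 ± 23866 in DS/AA (SD, n = 3 libraries each). That row does not separate transcripts of a chromosomal CIT1 from those of the expressed form. The form of Cit1 and the total amount of CIT1 transcript differ together between the strains. Their effects on the values below cannot be told apart. As a check of the labelled strain and medium, the galactose genes GAL1, GAL7 and GAL10 stood at 4610 to 12800 CPM, the scaled count relative to the library total on the CPM scale. Of the markers of mating type a, STE2, BAR1 and STE6 stood at 176 to 544 CPM, but the short pheromone genes MFA1 and MFA2 were at 0.0306 to 0.509. Markers of mating type alpha ran from 0 for MF(ALPHA)2 to 51.0 for SAG1.

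**Figure D1:**
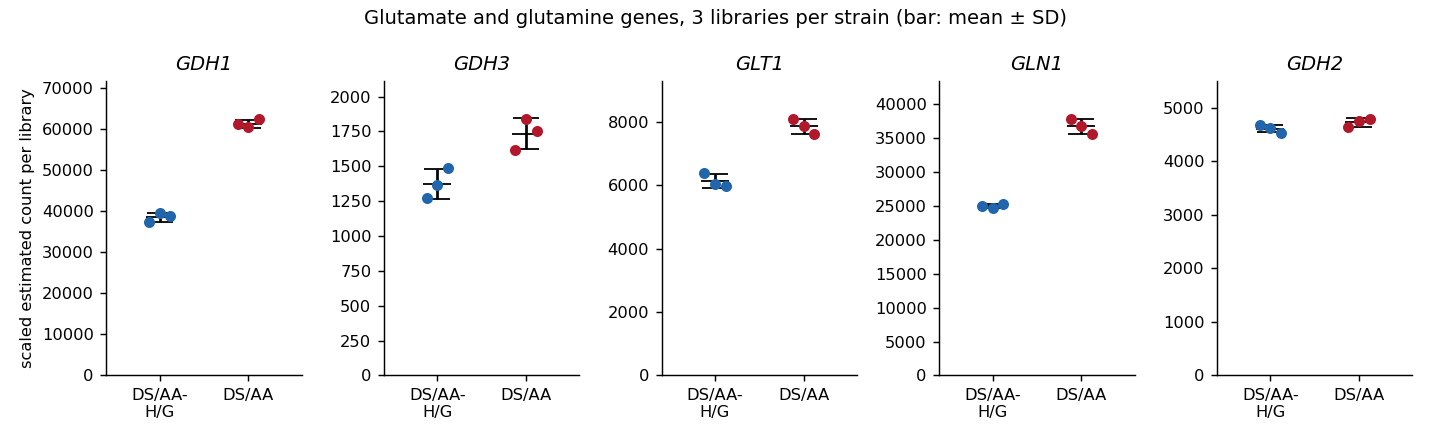
Scaled estimated counts of each gene (vertical axis, from 0) in the 3 libraries of each strain (points), with the mean and SD (bars). The DS/AA points lie above all DS/AA-H/G points for GDH1, GDH3, GLT1 and GLN1, and the strains overlap for GDH2.

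GDH1 (YOR375C, chromosome XV, 1041678 to 1043042, minus strand, R64), the main NADP-dependent enzyme gene, stood at 61148, 60488 and 62360 scaled counts in DS/AA replicates 1 to 3. In DS/AA-H/G replicates 4 to 6 it stood at 37301, 39492 and 38855. The lowest DS/AA library was thus far above the highest DS/AA-H/G library. The means were 61332 ± 949 and 38549 ± 1127 (SD, n = 3 each). The log2 change was 0.67 ± 0.03 (SE, 95% interval 0.60 to 0.74, limma adjusted p = 1.25e-08). Only 7.25% of tested genes had a larger rise, which placed GDH1 at rank 450 of 6197.

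GDH3 (YAL062W, chromosome I, 31567 to 32940, plus strand), its paralog and the less expressed isoenzyme gene, stood at 1618, 1836 and 1750 scaled counts in DS/AA, against 1272, 1363 and 1486 in the DS/AA-H/G replicates. The strains did not overlap, but replicates were more spread than for the other genes, with an SD of 6.33% and 7.81% of the mean. The log2 change was 0.34 ± 0.06 (SE, 95% interval 0.20 to 0.48, limma adjusted p = 0.00133), and 14.6% of tested genes had a larger rise. The smallest GDH3 value came from about 1300 estimated reads, for which the counting error alone is 2.77%.

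The coding starts of GDH1 and GDH3 are printed to show how far the paralogs can be told apart by their reads (RefSeq, R64, 5′ to 3′ on the coding strand, with bases that differ in the alignment in capitals).
GDH1, chrXV:1042986-1043042, minus strand: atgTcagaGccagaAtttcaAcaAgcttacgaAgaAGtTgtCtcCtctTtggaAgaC
GDH3, chrI:31567-31626, plus strand: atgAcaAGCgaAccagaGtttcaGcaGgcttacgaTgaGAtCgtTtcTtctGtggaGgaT
Over the whole coding spans, 1047 of 1365 aligned bases were identical (76.7%). The longest stretch in common was 35 nt, bases 490 to 524 of GDH1 and 493 to 527 of GDH3, and reads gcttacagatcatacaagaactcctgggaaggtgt. None of the 1325 windows of 50 aligned bases was identical between them. No gene of the 5 overlaps another row of the table on either strand, and none shares 100 nt at 95% identity with another row.

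The estimated rise of GDH1 was larger than that of GDH3. The log2 ratio of GDH1 to GDH3 scaled counts was 5.24, 5.04 and 5.15 in the DS/AA libraries, against 4.87, 4.86 and 4.71 in those of DS/AA-H/G. The strains did not overlap, and the difference of the means was 0.33 (exact two-sided permutation p = 0.1, the smallest that 3 against 3 libraries allow). Per kilobase, GDH3 supplied 2.56%, 2.93% and 2.71% of the summed GDH1 and GDH3 level in DS/AA replicates 1 to 3. It supplied 3.28%, 3.32% and 3.66% in DS/AA-H/G replicates 4 to 6. The share was thus lower in each DS/AA library, at 2.73% ± 0.184 against 3.42% ± 0.211 (SD, n = 3 each).

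GLN1 (YPR035W, chromosome XVI, 642208 to 643320, plus strand), the glutamine synthetase gene, stood at 37786, 36851 and 35624 scaled counts in DS/AA, against 24945, 24668 and 25273 in the DS/AA-H/G replicates. Its strains were also well apart, with means of 36753 ± 1085 and 24962 ± 303 (SD, n = 3 each). The log2 change was 0.56 ± 0.03 (SE, 95% interval 0.49 to 0.63, limma adjusted p = 6.83e-08), and 9.28% of tested genes had a larger rise.

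GLT1 (YDL171C, chromosome IV, 149203 to 155640, minus strand), the glutamate synthase gene and the longest of the 5, stood at 8072, 7869 and 7611 scaled counts in DS/AA, against 6390, 6033 and 5980 in the DS/AA-H/G replicates. Each DS/AA library was above each DS/AA-H/G library. The log2 change was 0.36 ± 0.04 (SE, 95% interval 0.27 to 0.44, limma adjusted p = 1.68e-05).

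GLN1 and GLT1 form the pair of steps that assimilates ammonium through glutamine, and the estimated rise of GLN1 was the larger. The log2 ratio of GLN1 to GLT1 scaled counts was 2.23 in each of the 3 DS/AA libraries, against 1.96, 2.03 and 2.08 in those of DS/AA-H/G. The difference was 0.20 (exact two-sided permutation p = 0.1, the smallest possible here).

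GDH2 (YDL215C, chromosome IV, 70640 to 73918, minus strand), the gene for the enzyme that breaks glutamate down, stood at 4634, 4764 and 4784 scaled counts in DS/AA, against 4671, 4615 and 4538 in the DS/AA-H/G replicates. The lowest DS/AA library lay between the DS/AA-H/G libraries. The log2 change was 0.04 ± 0.03 (SE, limma adjusted p = 0.427), and its 95% interval ran from 0.97-fold to 1.08-fold. As a share of the library total the strains did not overlap, and with equal column totals the log2 change was 0.09 and still not called (limma adjusted p = 0.0565). That total includes CIT1, and with equal totals without CIT1 the log2 change was 0.06 (limma adjusted p = 0.197).

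The balance of the synthesis gene GDH1 and the breakdown gene GDH2 was also taken within each library. The log2 ratio of GDH1 to GDH2 scaled counts was 3.72, 3.67 and 3.70 in the DS/AA libraries, against 2.997, 3.10 and 3.10 in those of DS/AA-H/G. These values did not overlap, with a difference of 0.63 (exact two-sided permutation p = 0.1, the smallest possible here). Of all tested genes, 27.8% were higher in DS/AA with no overlap between the strains, as 4 of the 5 genes were, and 52.7% did not overlap in either direction. These are shares of single genes, and no such share was taken for ratios between genes.

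**Figure D2:**
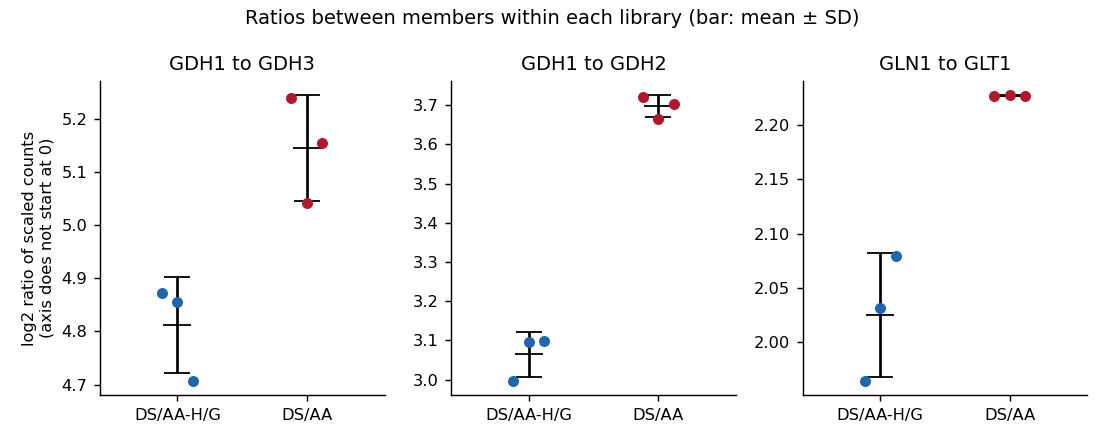
Log2 ratio of scaled estimated counts between pairs of the genes (vertical axis, not from 0) in each library (points), with the mean and SD (bars) of each strain. All 3 ratios are higher in DS/AA, by 0.33, 0.63 and 0.20, without overlap.

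**Figure D3:**
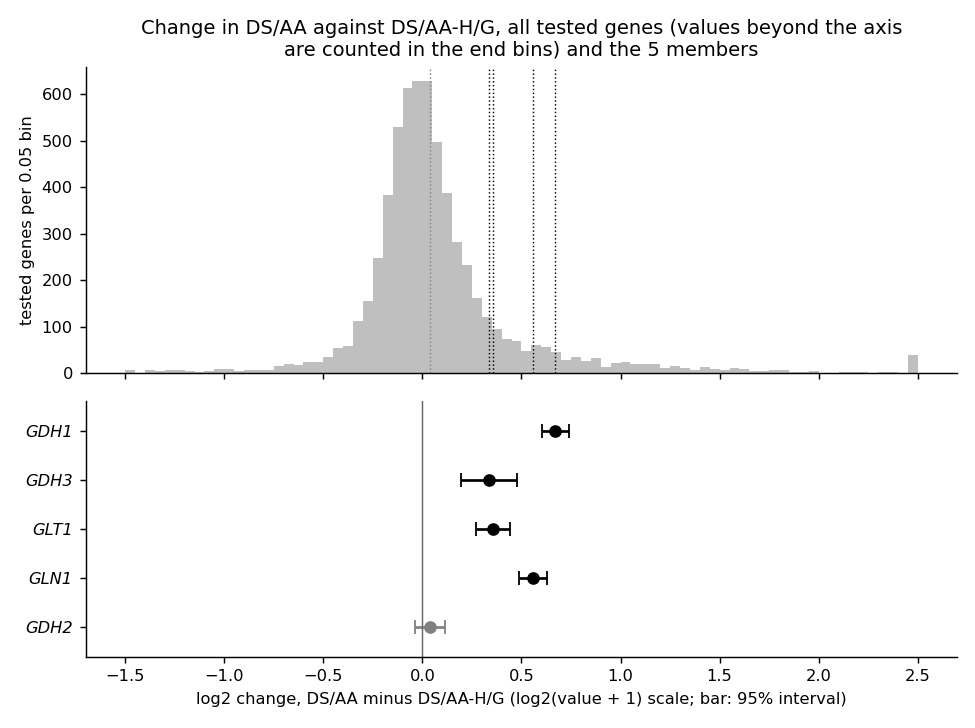
Distribution of the log2 change over the 6197 tested genes (upper panel, number of genes per bin) and the log2 change of each of the 5 genes with its 95% interval (lower panel). Dotted lines carry the 5 changes into the upper panel, where GDH2 at 0.04 lies near the peak and the others lie on its right shoulder, from 0.34 to 0.67.

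Levels were compared between genes in CPM per kilobase of the row's whole span, without a correction for fragment length. The library total behind CPM includes the CIT1 row, which was higher in DS/AA-H/G. With equal column totals the median log2 change over all tested genes was 0.06, against 0.01 as deposited. Differences between strains in CPM are thus shifted towards DS/AA. GDH1 led in both strains, at 1461 ± 22.6 in DS/AA against 884 ± 22.7 in the DS/AA-H/G libraries (SD, n = 3 each). GLN1 followed at 1073 ± 30.7 and 702 ± 7.28, so that GDH1 was 1.36 ± 0.0573 times GLN1 in DS/AA and 1.26 ± 0.0433 times in DS/AA-H/G. The other 3 genes were far lower and close together.

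GDH2 came next, with a level per kilobase of 46.9 ± 0.863 in DS/AA against 44.0 ± 0.886 in DS/AA-H/G. GDH3 stood at 41.1 ± 2.65 and 31.3 ± 2.27, and GLT1 at 39.7 ± 1.13 and 29.8 ± 1.24 on the same scale. On this scale GDH2 was above GDH3 and GLT1 in every library of both strains, while GDH3 and GLT1 overlapped and their order was not resolved. These genes differ in length, and whether their order holds with a corrected length was not tested. The breakdown gene GDH2 was 1.476 ± 0.0355 times GLT1 per kilobase in DS/AA-H/G and 1.183 ± 0.0537 times in DS/AA. The 5 genes summed to 3638 to 3678 CPM in the DS/AA libraries, against 2348 to 2384 CPM in those of DS/AA-H/G.

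**Figure D4:**
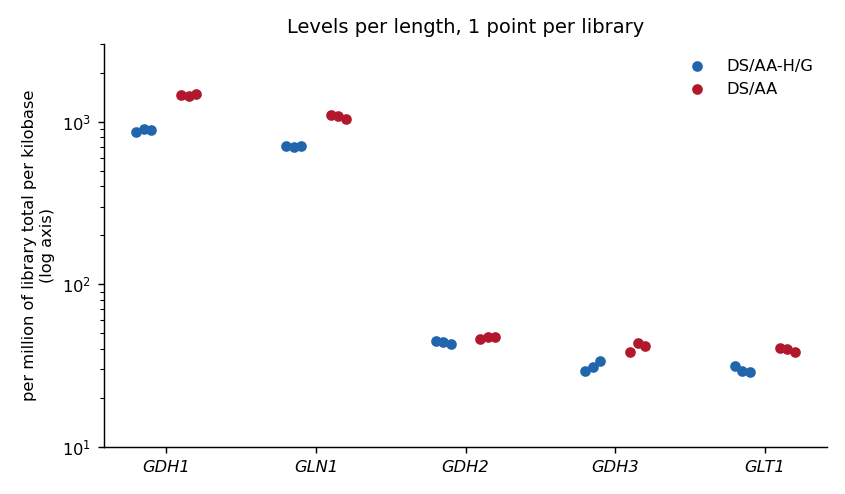
CPM per kilobase (vertical log axis) of each gene in each library (points, coloured by strain). GDH1 and GLN1 stand at 694 to 1486, and GDH2, GDH3 and GLT1 at 28.9 to 47.5.

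In the authors' deposited table, the log2 ratios of the group means were 0.67 for GDH1, 0.34 for GDH3, 0.36 for GLT1, 0.56 for GLN1 and 0.04 for GDH2. Their q-values in the authors' deposited table were 1.02e-52, 4.99e-06, 1.84e-13, 3.92e-37 and 0.548 in the same order, so the same 4 genes passed a q of 0.05 there.

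The promoters of GDH1, GDH3 and GDH2 are printed because these related enzyme genes differed in their change. Each window runs from 250 bases before the start codon to 50 bases from it (RefSeq, R64, 5′ to 3′ on the coding strand). Capitals mark matches on either strand to GATAAG (activators and repressors of nitrogen genes such as Gln3 and Dal80), TGACTC (Gcn4, the activator of amino acid synthesis genes), CCAAT (the Hap complex, an activator of respiratory genes) or GTCAC (Rtg1 and Rtg3, of retrograde signalling). No match in these windows overlapped another.
GDH1, chrXV:1042993-1043292, minus strand: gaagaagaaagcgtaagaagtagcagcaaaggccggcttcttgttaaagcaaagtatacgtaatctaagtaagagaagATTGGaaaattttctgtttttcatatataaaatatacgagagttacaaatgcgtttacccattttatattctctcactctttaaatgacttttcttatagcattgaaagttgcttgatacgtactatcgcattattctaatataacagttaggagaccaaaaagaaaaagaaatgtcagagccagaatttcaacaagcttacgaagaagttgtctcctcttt
GDH3, chrI:31317-31616, plus strand: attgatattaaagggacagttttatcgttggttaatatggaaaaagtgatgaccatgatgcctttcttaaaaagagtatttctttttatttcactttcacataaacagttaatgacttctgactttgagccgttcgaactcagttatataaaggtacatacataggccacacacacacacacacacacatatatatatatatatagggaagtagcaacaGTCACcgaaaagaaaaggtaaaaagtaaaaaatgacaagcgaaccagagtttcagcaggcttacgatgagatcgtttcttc
GDH2, chrIV:73869-74168, minus strand: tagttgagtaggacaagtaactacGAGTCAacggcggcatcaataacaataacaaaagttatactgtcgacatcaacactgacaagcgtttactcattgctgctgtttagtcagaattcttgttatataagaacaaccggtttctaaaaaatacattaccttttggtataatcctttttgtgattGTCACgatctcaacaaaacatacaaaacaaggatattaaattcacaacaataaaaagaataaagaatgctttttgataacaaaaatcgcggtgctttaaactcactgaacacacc
The GDH1 window held 1 match, ATTGG, the other strand of CCAAT, starting 172 bases before the start codon. The GDH3 window held GTCAC starting 31 bases before it. GDH2, whose change was not called, held GAGTCA, the other strand of TGACTC, starting 226 bases before the start codon, and GTCAC starting 65 bases before it. GLT1 held ATTGG, starting at base 33 of the coding sequence, and GLN1 held none of the 4 motifs.

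These letters are common. Of 6001 windows of protein-coding genes, 43.3% held CCAAT, 26.4% GTCAC, 14.7% GATAAG and 7.98% TGACTC on either strand. Of the 5 genes, 2 held CCAAT, 2 GTCAC, 1 TGACTC and 0 GATAAG. A match is a description of the sequence, and no match says only that these letters are not in the window.

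The genes whose profile over the 6 libraries was nearest to that of each of the 5 were found by Euclidean distance between centred log2 profiles, among the 5096 tested genes that averaged at least 10 CPM. For GDH1 they were CEM1, NDE1 and RPM2, at distances of 0.0669, 0.0807 and 0.0855 and log2 changes of 0.65, 0.68 and 0.70. CEM1 and NDE1 encode a mitochondrial keto-acyl synthase and an external NADH dehydrogenase, and RPM2 the protein subunit of mitochondrial RNase P. For GLN1 they were CHS1 (a chitin synthase gene), HSP150 (a cell wall protein gene) and YKL023W, at 0.0494, 0.0668 and 0.0771. For these and the genes below, a near profile means mainly a change of similar size, and no link in function was tested.

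For GLT1 the nearest were DBF20, SIR1 and UBP5, at distances of 0.0531 to 0.0578, for GDH3 OPI10, MPM1 and YGR153W, at 0.0347 to 0.0714, and for GDH2 APL3, PDR1 and FPK1, at 0.0233 to 0.0305. None of the 5 was among the 3 genes nearest to another. The closest pair was GDH1 and GLN1, at a distance of 0.177, with GLN1 at place 40 from GDH1 and GDH1 at place 84 from GLN1.

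The genes around these 5 were counted in lists named by role. Of 9 genes that supply or carry 2-oxoglutarate, 7 rose and 0 fell, with a median log2 change of 1.17. The 4 with the smallest p were the aconitase gene ACO1, the isocitrate dehydrogenase genes IDH1 and IDH2 and the cytosolic isocitrate dehydrogenase gene IDP2, at 1.82 to 2.73; IDH2 overlaps another row on the opposite strand. The mitochondrial isocitrate dehydrogenase gene IDP1, at 0.02, and the carrier gene ODC1, at 0.08, did not pass, although ODC1 did with equal column totals (0.14, limma adjusted p = 0.0158) and under quantile normalization (0.12, limma adjusted p = 0.0466). Of these 9 log2 changes, 6 were larger than that of GDH1.

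Of 8 transport genes 5 rose and 2 fell, with a median of 0.56. The amino acid permease genes AGP1 and GAP1 rose from 5015 ± 350 to 12728 ± 386 and from 1508 ± 103 to 3114 ± 170 scaled counts (SD, n = 3 each). The ammonium permease genes MEP1, MEP3 and MEP2 rose by 1.02, 0.72 and 0.41 on the log2 scale. The dicarboxylic amino acid permease gene DIP5, at -0.59, and the glutamine permease gene GNP1, at -0.35, fell, and GNP1 overlaps another row on the opposite strand. MEP2, DIP5 and GNP1, like IDP1 and ODC1, were picked with their values in view.

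Genes that pass on the nitrogen of glutamate or glutamine, or that form glutamate, changed in both directions. Over all tested genes, 22.1% rose and 19.7% fell. Of 11 transaminases that use or form glutamate 8 rose and ARO9 fell, with a median of 0.18, and of 16 genes of glutamine amidotransferases and their partner subunits 11 rose and 2 fell, with a median of 0.29. AAT2, the cytosolic aspartate aminotransferase gene, rose from 14734 ± 113 to 34519 ± 594 scaled counts (SD, n = 3 each), HIS5 of histidine synthesis by 1.12, and ARO8 and ALT1 by 0.29 and 0.20. ASN1, CPA1, HIS7 and URA2, of asparagine, arginine, histidine and pyrimidine synthesis, rose by 0.88, 0.58, 0.48 and 0.46. The 2 that fell, GUA1 and URA7, make guanine and cytidine nucleotides and were both at -0.21. URA8, the other gene of the cytidine nucleotide step, rose by 0.21 (limma adjusted p = 0.00693). ASN2, the other asparagine synthetase gene, was at -0.02 and did not pass (limma adjusted p = 0.684). GUA1, URA7, URA8, ASN2 and ARO9, and below ARG8 and BAT2, were picked with their values in view. ARO9, a transaminase gene of aromatic amino acid breakdown, was at -0.41 and overlaps another row on the opposite strand. Under quantile normalization 3 transaminase genes fell, with ARG8 (limma adjusted p = 0.0282) and BAT2 (limma adjusted p = 0.0295) beside ARO9.

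Of 6 genes listed as other routes to glutamate 3 rose and 2 fell. CAR2, of arginine breakdown, rose by 1.03, and UGA2 and UGA1, of GABA breakdown, by 0.28 and 0.23, while PRO3 fell by 0.20 and PUT2, of proline breakdown, by 0.15 on the log2 scale, the latter picked with its value in view. PRO3 makes proline from an intermediate of this route, and UGA2 acts after UGA1, so neither forms glutamate itself. Both CAR2 and PRO3 overlap another row on the opposite strand. Of 6 genes that lead from glutamate to other products 3 rose and 0 fell. They were ARG5,6 and ARG2 of arginine synthesis, at 0.63 and 0.20, and the glutamate decarboxylase gene GAD1, at 0.29, and ARG5,6 overlaps another row on the opposite strand. FOL3, of folate synthesis, was at 0.10 and did not pass (limma adjusted p = 0.108), except with equal column totals (limma adjusted p = 0.0175), where 4 of the list rose. Under quantile normalization PRO1, of proline synthesis and picked with its value in view, fell (-0.16, limma adjusted p = 0.04).

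Of 15 genes for transcription regulators of nitrogen, amino acid, respiratory and retrograde genes, 10 rose and 0 fell, with a median of 0.16. GCN4, whose protein is controlled largely at translation, rose from 40799 ± 1045 to 53884 ± 703 scaled counts (SD, n = 3 each). HAP4, the activating subunit of the Hap complex, rose 2.39-fold, the GATA activator gene GAT1 1.39-fold and the GATA repressor gene DAL80 3.04-fold, the last from a low level of 61.5 ± 9.30. GAT1 and DAL80 overlap another row on the opposite strand. RTG1, a retrograde regulator gene, was at -0.07 and did not pass, but fell under quantile normalization (limma adjusted p = 0.0142), where 9 of the list rose and GZF3, a GATA repressor gene, was no longer called (limma adjusted p = 0.06). With equal column totals 11 rose, HAP2 of the Hap complex among them (limma adjusted p = 0.0333). Over all tested genes, 1838 of 6178 rose with equal column totals and 1035 of 6250 under quantile normalization, against 1368 of 6197 as deposited. The genes that fell numbered 748, 1773 and 1222 in the same order. List counts under these scalings, here and above, are to be read beside these numbers. RTG1, GZF3 and HAP2 were picked with their values in view.

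**Figure D5:**
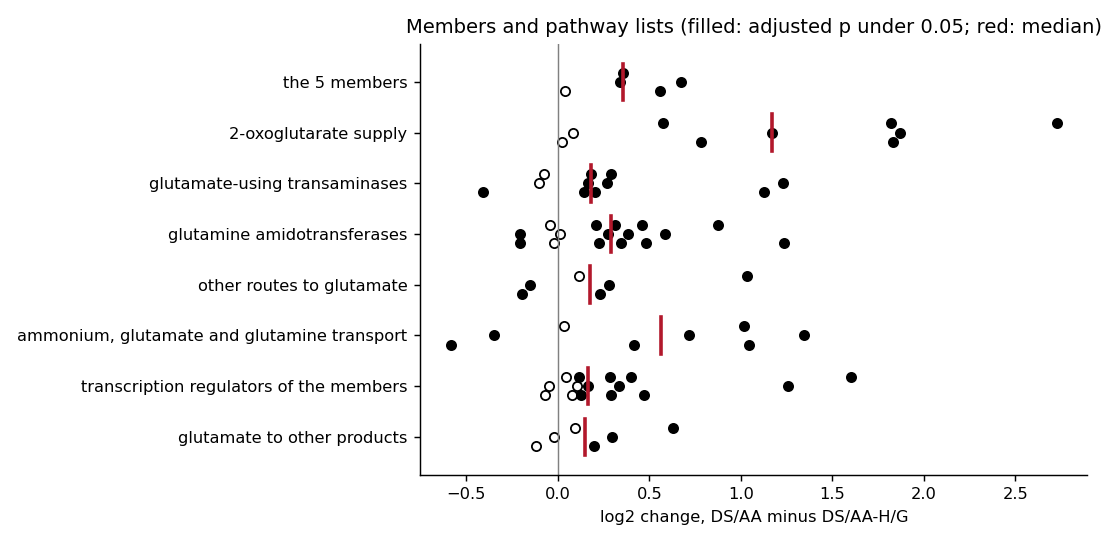
Log2 change of each of the 5 genes and of each gene of the pathway lists (horizontal axis; filled points passed an adjusted p of 0.05, open points did not), with the median of each list in red. The 2-oxoglutarate supply list has the rightmost median, at 1.17, against 0.36 for the 5 genes.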

How the data were processed

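RNA was sequenced from 3 libraries of each strain. Per the labels' protocols, an RNeasy kit gave the RNA and a strand-marking NEBNext Ultra II Directional kit the libraries. The submitters' processing notes name build R64 and the tools Salmon 1.2.1, cutadapt 1.18, bcl2fastq 2 and R 3.5.1, without settings or strand options. The authors deposited 1 signal per transcript and library, which the values show to be estimated counts divided by a scaling factor. In each library a step of 0.940 to 1.05 was shared by 104 to 130 rows, and 93.3% to 96.4% of values under 10 steps, but only 36.5% to 44.0% of all values, were whole multiples of it within 0.01, so no count model was used. Each row also has the authors' log2 ratio, p-value, q-value, a score (their rank) and a mark, all deposited without the name of the test.

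Genes reaching 1 in 3 or more libraries were tested by limma 3.58.1 (R 4.3.3, trend and robust moderation) on log2(value + 1), a scale that understates the change of low genes. A positive change is higher in DS/AA, and 95% intervals are limma's. Ratios within libraries were compared by exact permutation over libraries. Of the table's rows, 5793 had the same start and end as a gene of the RefSeq annotation of R64, the 5 genes among them. Sequences were read from that genome with Biopython 1.88, and copies were searched with BLAST+ 2.17.0. The genes and lists were chosen with earlier results of these data known. List genes were named from the 4 with the smallest p of a list, and others are said to be picked with values in view. The limma script was tested on simulated data. Counting errors cover counting only.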

Additional observations from a re-analysis of the deposited data

How the results depend on the processing

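The 4 rises and the uncalled change of GDH2 kept their direction and their side of the threshold under equal column totals, equal totals without CIT1, quantile normalization, pseudocounts of 0.1 and 10, no filter, a minimum mean of 10 CPM, limma without trend or robust moderation, and without each library in turn. Without 1 library the log2 change was 0.65 to 0.69 for GDH1, 0.28 to 0.40 for GDH3, 0.34 to 0.39 for GLT1, 0.54 to 0.58 for GLN1 and 0.03 to 0.05 for GDH2, and over the other alternatives it was 0.67 to 0.78, 0.27 to 0.39, 0.36 to 0.41, 0.56 to 0.61 and 0.03 to 0.09. Under quantile normalization the differences of the GDH1 to GDH3 and GDH1 to GDH2 log2 ratios moved to 0.51 and 0.75; the cause was not tested. The number of all genes called was 2590, and it was 2009 to 2576 without 1 library and 2196 to 2808 over the other alternatives. The share of calls that were higher was 52.8% as deposited, 71.1% with equal column totals and 36.9% under quantile normalization. No paired analysis was possible because the strains share no replicate number.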

Other observations

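The log2 ratio of GLN1 to GLT1 scaled counts was nearly the same in the 3 DS/AA libraries, at 2.2267, 2.2273 and 2.2265 (SD 0.00044), although both genes had an SD of 2.95% and 2.94% of their mean over these libraries. In DS/AA-H/G the SD of the same ratio was 0.0574. This was noticed after the values were seen, and with 3 libraries a strain it was not tested.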
